A study of Mus musculus with 4 samples.

Results

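Blood vessel, lymphatic and pericyte genes were examined in bulk RNA sequencing counts of sublingual glands, salivary glands rich in mucous cells, from female Nkx2.3-/- mice. The 32 genes were listed by name: 26 endothelial genes, 4 lymphatic endothelial genes and 2 pericyte genes. All 32 were found among the 24411 gene symbols of the deposited count table. The 4 libraries all came from knockout glands on the C57BL/6J strain background, 2 from mice aged 8 weeks (replicates 1 and 2) and 2 from mice aged 32 weeks (replicates 3 and 4). The question was whether the vascular transcripts of the knockout gland differ between these ages. Libraries with intact Nkx2-3 were not analysed here, so every value below belongs to the knockout. The labels do not say whether the libraries are separate animals. A p-value therefore sets the age difference against the spread between these libraries, which may be technical.

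Vessels are lined by endothelial cells, which are held together by junction proteins and are kept alive and patterned by growth factor receptors for VEGF and the angiopoietins. ETS and SOX transcription factors give these cells their identity, and Notch signals set the arterial branches and sprouts. Lymphatic vessels are endothelial tubes governed by Prox1 and by the receptor Flt4, and pericytes are contractile support cells wrapped around capillaries. Nkx2-3 is a homeobox factor known for its role in specialised vessels of gut and spleen, and it is expressed in the developing sublingual gland.

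Promoter windows of 4 members are shown because these genes stand for the patterns described below: Kdr and Flt1 encode VEGF receptors, Emcn shared its 2 highest libraries with the pericyte genes, and Egfl7 had the smallest unadjusted p of the members. The windows are from RefSeq (GRCm38.p6) and run from 250 bases before a gene start to 50 bases after it, 5′ to 3′ on the gene's strand. They lie at chr5:75978406-75978705 (minus strand), chr5:147725962-147726261 (minus strand), chr3:137340828-137341127 (plus strand) and chr2:26580833-26581132 (plus strand, the first of 3 windows of that gene). Capitals mark AGGAAG, a short ETS-type motif, or its reverse complement.
Kdr: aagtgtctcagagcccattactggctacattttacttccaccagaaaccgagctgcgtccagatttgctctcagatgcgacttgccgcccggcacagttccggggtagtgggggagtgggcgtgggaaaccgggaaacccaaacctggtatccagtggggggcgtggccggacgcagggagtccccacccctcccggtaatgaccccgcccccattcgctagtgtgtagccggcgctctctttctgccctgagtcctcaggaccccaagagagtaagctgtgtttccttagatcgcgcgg
Flt1: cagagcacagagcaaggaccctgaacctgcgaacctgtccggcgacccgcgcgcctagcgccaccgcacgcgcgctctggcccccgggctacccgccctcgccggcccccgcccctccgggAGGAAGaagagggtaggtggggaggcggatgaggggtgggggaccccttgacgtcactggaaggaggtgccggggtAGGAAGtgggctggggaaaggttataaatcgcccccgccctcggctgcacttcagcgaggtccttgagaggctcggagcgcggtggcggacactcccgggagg
Emcn: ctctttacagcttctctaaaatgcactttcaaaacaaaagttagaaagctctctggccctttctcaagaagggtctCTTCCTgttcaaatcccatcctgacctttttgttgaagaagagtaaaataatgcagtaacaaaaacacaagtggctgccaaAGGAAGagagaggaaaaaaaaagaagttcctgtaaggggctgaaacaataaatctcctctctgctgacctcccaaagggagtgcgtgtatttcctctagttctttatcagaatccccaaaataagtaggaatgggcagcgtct
Egfl7: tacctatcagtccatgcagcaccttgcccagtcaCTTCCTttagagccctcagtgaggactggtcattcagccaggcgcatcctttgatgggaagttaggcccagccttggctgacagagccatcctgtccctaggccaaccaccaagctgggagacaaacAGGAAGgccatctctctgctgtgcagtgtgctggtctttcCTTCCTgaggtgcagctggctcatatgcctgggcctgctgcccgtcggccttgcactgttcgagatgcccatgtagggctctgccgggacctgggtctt

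Of the 32 members, 16 had such a window, giving 21 windows in all. AGGAAG was present on either strand in 9 of the 21 windows (42.9%) and in 35.4% of the 32851 windows of all genes. It occurred 2 times in the Flt1 window, 2 times in that of Emcn and 3 times in that of Egfl7, and 0 times in that of Kdr. AACAAT, a SOX-type motif, was in 4 of 21 windows (19.0%) against 10.7% of all windows. TGGGAA, an RBPJ-type motif, was in 6 of 21 (28.6%) against 25.6%, and TATAAA was in 3 of 21 (14.3%) against 13.6%. AGGAAG and TGGGAA share the letters GGAA, and a match describes letters, not a bound site.

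The vascular genes were low-abundance transcripts in a gland whose 5 most abundant genes took 35.4% to 40.7% of counts. Total counts were between 12925869 and 16484772 per library, and the 32 members held 2056 to 3616 of them, or 0.0159% to 0.0224%. Values below are CPM (read counts scaled to library size, with TMM factors), and a count of 0 would allow up to 0.174 to 0.221 CPM (3 counts, counting error only). Gene positions are those of GENCODE vM1 on NCBIM37, the assembly that the submitters' mm9 names, and differ in build from the promoter windows above. Nkx2-3 had 31 and 28 counts at 8 weeks and 21 and 29 at 32 weeks, and the labels do not say which part of the gene was removed. Madcam1, an adhesion molecule of specialised vessels, had 0 counts in all 4 libraries. Every pair of libraries differed by more than sampling noise (chi-square of 23.7 or more per degree of freedom). The pair most alike, 8-week replicate 1 and 32-week replicate 4, crossed the ages, with a Pearson r of 0.987 between their log2 values. The r was 0.962 within 8 weeks and 0.983 within 32 weeks, each taken across genes and given as a description.

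All 32 members had at least 1 count in each library, and the endothelial label therefore rests on detected defining genes. Pecam1, Cdh5, Kdr and Tie1 were present at 2.36 CPM or more in every library. Per kilobase of the longest annotated coding transcript, Egfl7 (6.46 CPM per kb) and Vwf (6.29 CPM per kb) had the highest mean levels. They were followed by Esam (3.42), Pecam1 (3.27), Emcn (2.82), Ramp2 (2.796) and Plvap (2.74), all in CPM per kb. The lowest were Prox1 (0.0327), Nos3 (0.1001), Erg (0.11) and Notch4 (0.112 CPM per kb). The lymphatic label is thinly supported: Prox1 had 2 counts in each library, and of the further lymphatic genes Ccl21a had 0 counts in all libraries and Foxc2 had 2 counts in 32-week replicate 4 alone.

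**Figure D1:**
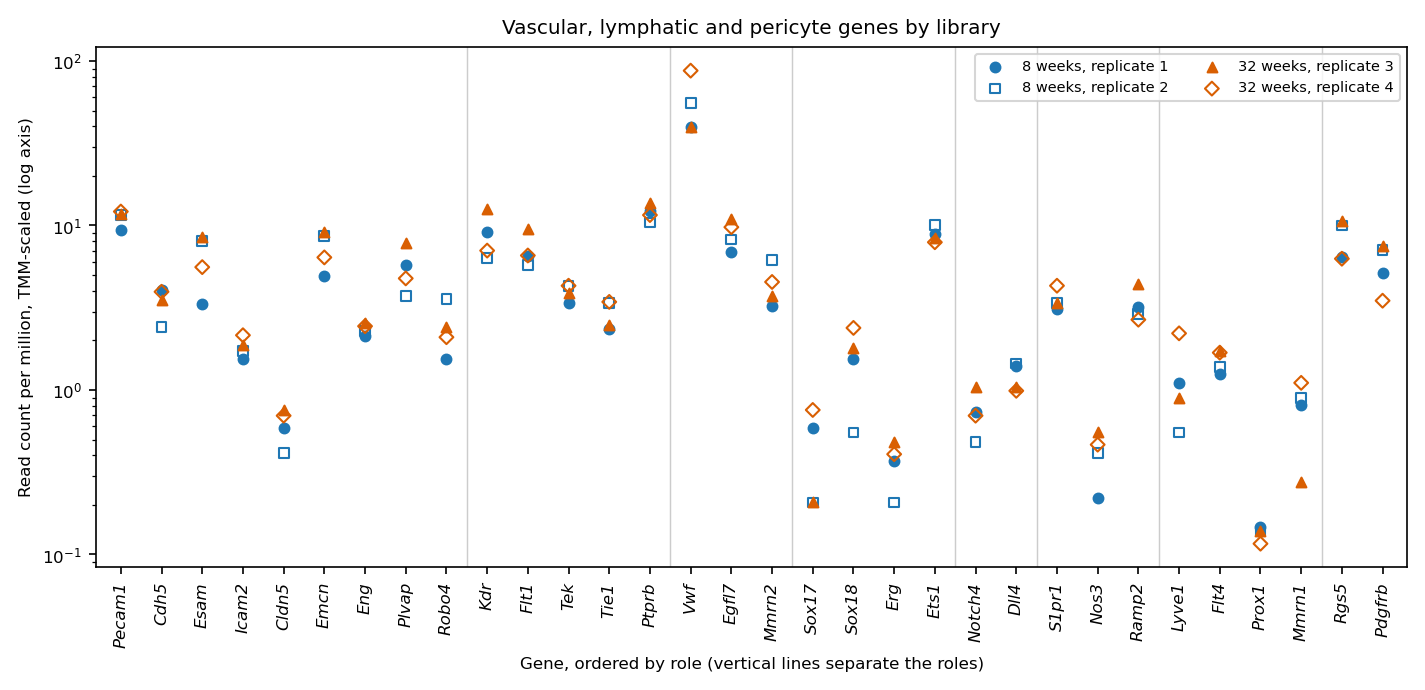
TMM-scaled CPM on a log axis for the 32 vascular genes, ordered by role, with 1 point per library (blue circles and squares for 8 weeks, orange triangles and diamonds for 32 weeks). Vwf stands above all other members in every library, from 39.6 to 87.4 CPM, and Prox1 lies lowest.

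No vascular gene passed the age test. The low-count filter kept 28 of the 32 members, and edgeR's quasi-likelihood test with Benjamini-Hochberg adjustment over all 12810 genes tested called 0 of the 28, against 0 of 12810 genes overall (0%). The smallest adjusted p of a member was 0.999, and 0 members had an unadjusted p under 0.05, against 174 of all genes tested (1.36%). DESeq2 called 0 of the 32 members and 3 of 18104 genes (0.0166%), and limma-voom called 0 genes, with 177 at an unadjusted p under 0.05. Below, every adjusted p from edgeR for a member is 0.999, and each log2 fold change sets 32 weeks over 8 weeks. With 2 libraries against 2, the smallest p an exact permutation test of a single gene can give is 0.333.

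Most members had a slightly higher fitted level at 32 weeks. The log2 fold change was above 0 in 22 of the 28 tested members, where 48.3% of all genes tested were above 0, and its median was 0.22 against -0.01 for all genes tested. Both 32-week libraries lay above both 8-week libraries in 9 members (background 14.4%) and below them in 2 (background 14.2%), and the ages overlapped in the other 17. The 9 were Pecam1, Icam2, Cldn5, Eng, Flt1, Egfl7, Sox18, S1pr1 and Flt4, and the 2 were Ets1 and Dll4. For Flt1 and S1pr1 the nearest libraries of the 2 ages were almost level, at 6.57 and 6.57 CPM and at 3.38 and 3.39 CPM. With total counts only in place of TMM the median was 0.12 and 20 of 28 were above 0. Without 8-week replicate 1 the number above 0 was 18 of 29, and without 8-week replicate 2 it was 24 of 29. In bulk tissue, more cells of a type and more RNA per cell cannot be told apart.

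**Figure D2:**
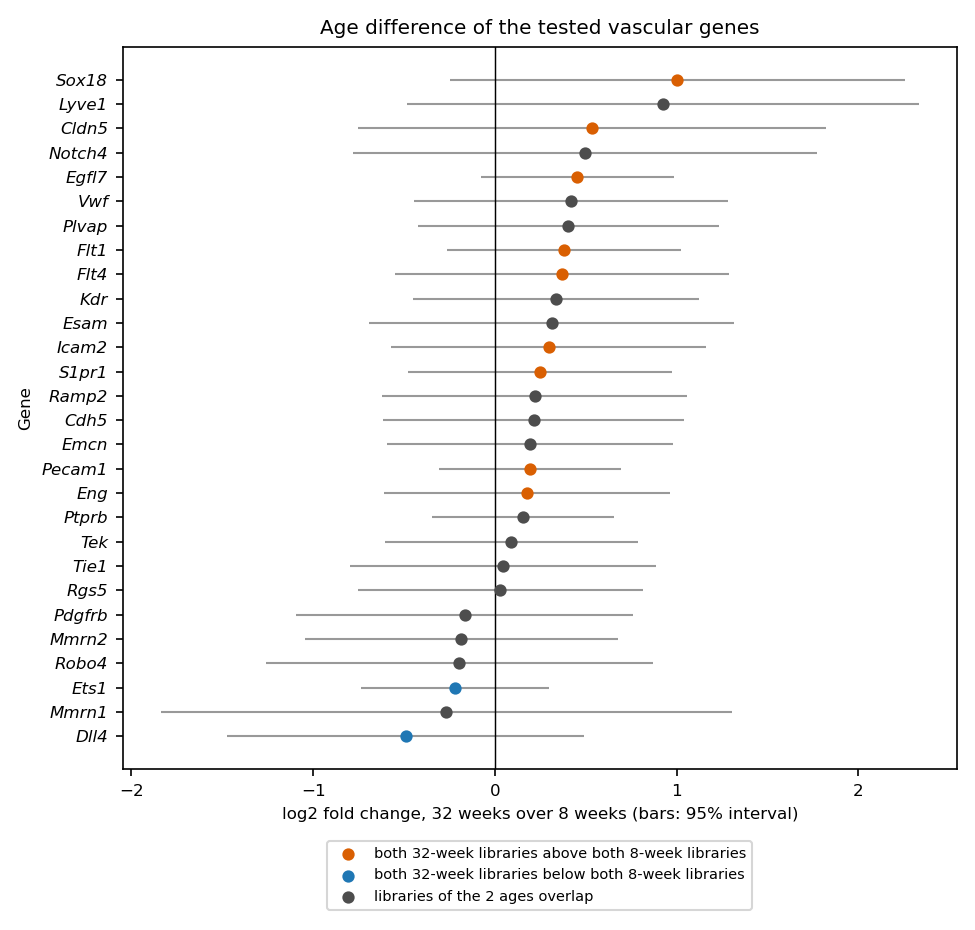
Log2 fold change of 32 over 8 weeks for the 28 tested members, with 95% intervals from edgeR as bars. Orange marks the 9 genes with both 32-week libraries above both 8-week libraries, blue the 2 with both below, and every interval includes 0.

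The summed level of the members leaned on Vwf. Summed over the 32 genes it was 151.7 and 182.2 CPM in the 8-week and 187.5 and 210.3 CPM in the 32-week libraries, with no overlap between the ages. Without Vwf it was 112.2 and 126.6 CPM in the 8-week and 147.8 and 122.96 CPM in the 32-week libraries, so the ages overlapped. Vwf encodes von Willebrand factor, the adhesive protein stored in endothelial granules (NCBIM37 chromosome 6, 125496792 to 125636697, plus strand). It had 39.6 and 55.6 CPM in the 8-week and 39.7 and 87.4 CPM in the 32-week libraries (log2 fold change 0.42, SE 0.37, 95% interval -0.44 to 1.28). 32-week replicate 4 stood highest and 32-week replicate 3 was level with 8-week replicate 1. Without 32-week replicate 4 the log2 fold change was -0.26.

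Junction and surface genes were above 0 in 8 of 9 members, with a median log2 fold change of 0.21. Pecam1, the CD31 adhesion molecule of endothelial contacts (chromosome 11, 106515531 to 106611942, minus strand), had 9.45 and 11.5 CPM in the 8-week and 11.8 and 12.2 CPM in the 32-week libraries (log2 fold change 0.19, SE 0.21). The gap between the ages for Pecam1 was smaller than that between the 8-week libraries. Cldn5, the endothelial tight junction claudin (chromosome 16, 18776940 to 18778353, plus strand), had 0.59 and 0.414 CPM in the 8-week and 0.76 and 0.698 CPM in the 32-week libraries (log2 fold change 0.53, SE 0.55), on 6 to 12 counts. Its interval ran from -0.75 to 1.82. Icam2, a leukocyte ligand, ranged from 1.55 to 2.15 CPM over the libraries, and Eng, the TGF-beta co-receptor endoglin, from 2.14 to 2.56 CPM. Cdh5, the VE-cadherin of adherens junctions, ranged from 2.42 CPM in 8-week replicate 2 to 4.06 CPM in 8-week replicate 1, so its extremes fell within 1 age. Robo4, a receptor that steadies the vessel wall, had the only negative fold change of these 9 (-0.20, SE 0.46), and its highest library was 8-week replicate 2.

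The VEGF and angiopoietin receptors, grouped with the phosphatase Ptprb, were above 0 in 5 of 5 genes, with a median log2 fold change of 0.15. Kdr, the main signalling receptor for VEGF-A (chromosome 5, 76328852 to 76374483, minus strand), had 9.15 and 6.35 CPM in the 8-week and 12.6 and 7.04 CPM in the 32-week libraries (log2 fold change 0.34, SE 0.34). Flt1, the VEGF receptor that also acts as a decoy (chromosome 5, 148373180 to 148537587, minus strand), had 6.57 and 5.73 CPM in the 8-week and 9.47 and 6.57 CPM in the 32-week libraries (0.38, SE 0.27). Both receptors were highest in 32-week replicate 3 and lowest in 8-week replicate 2. For Kdr the fold change was -0.13 without 32-week replicate 3. Ptprb, the phosphatase VE-PTP that restrains Tek (chromosome 10, 115712579 to 115826594, plus strand), had 12.2 and 10.4 CPM in the 8-week and 13.7 and 11.6 CPM in the 32-week libraries (0.15, SE 0.21). Tek, the angiopoietin receptor, and its partner Tie1 differed least among the receptors, with log2 fold changes of 0.09 (SE 0.30) and 0.05 (SE 0.36).

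Among the secreted products, Egfl7, a matrix protein laid down by endothelium (chromosome 2, 26435534 to 26448640, plus strand), had 6.94 and 8.22 CPM in the 8-week and 10.99 and 9.77 CPM in the 32-week libraries. Both 32-week libraries were above both 8-week libraries. The log2 fold change was 0.45 (SE 0.23, 95% interval -0.08 to 0.98), and with 1 library left out it stayed between 0.34 and 0.59. Exons of Egfl7 share 401 bases with those of Agpat2 on the opposite strand and of Gm20532 and Mir126 on the same strand. The source of part of its counts is therefore uncertain. Mmrn2, a matrix glycoprotein of endothelium, had its highest level in 8-week replicate 2 (6.15 CPM) and ranged from 3.25 to 4.54 CPM in the other libraries.

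The transcription factors divided. Sox18, a SOX factor of endothelial and lymphatic identity (chromosome 2, 181404541 to 181406345, minus strand), had 1.55 and 0.552 CPM in the 8-week and 1.80 and 2.38 CPM in the 32-week libraries. It had the largest fold change of the tested members (log2 1.00, SE 0.53, 95% interval -0.25 to 2.25), and 8-week replicate 2 stood low with 8 counts. Without that library the log2 fold change was 0.44, and without 8-week replicate 1 it was 1.91. Ets1, an ETS factor also expressed by lymphocytes (chromosome 9, 32443806 to 32565405, plus strand), had 8.86 and 10.1 CPM in the 8-week and 8.36 and 7.91 CPM in the 32-week libraries (log2 fold change -0.22, SE 0.22). Erg, an ETS factor that maintains endothelial identity, and Sox17, an arterial SOX factor, had 3 to 7 and 3 to 13 counts per library and were not tested.

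Notch members pointed in opposite directions. Dll4, the Notch ligand of arteries and sprouting tip cells (chromosome 2, 119151520 to 119161698, plus strand), had 1.40 and 1.45 CPM in the 8-week and 1.04 and 0.989 CPM in the 32-week libraries. It had the most negative fold change of the tested members (log2 -0.49, SE 0.42, 95% interval -1.48 to 0.49), on 15 to 21 counts, and stayed between -0.52 and -0.45 with 1 library left out. Notch4, the endothelial Notch receptor, had 0.738 and 0.483 CPM in the 8-week and 1.04 and 0.698 CPM in the 32-week libraries (0.50, SE 0.55), and the ages overlapped.

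Among genes of vascular tone and barrier, S1pr1, the sphingosine-1-phosphate receptor that tightens junctions, ranged from 3.099 to 4.30 CPM (log2 fold change 0.25, SE 0.31). Ramp2, which pairs with the adrenomedullin receptor, ranged from 2.68 to 4.42 CPM, with both extremes in the 32-week libraries. Its exons share 1103 bases with those of Vps25 on the same strand, so the source of its counts is uncertain. Nos3, the endothelial nitric oxide synthase, had 3 to 8 counts per library and was not tested, and its exons share 1334 bases with genes on the opposite strand.

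Lymphatic members had low counts. Lyve1, a hyaluronan receptor of lymphatic endothelium and of some macrophages (chromosome 7, 117994121 to 118006467, minus strand), had 1.11 and 0.552 CPM in the 8-week and 0.899 and 2.21 CPM in the 32-week libraries (log2 fold change 0.92, SE 0.60). Only 32-week replicate 4 stood high, with 38 counts against 8 to 15 in the others, and without it the log2 fold change was 0.12. The summed level of 8 macrophage genes, all of them detected in every library, was 124.9 and 78.2 CPM in the 8-week and 96.7 and 141.2 CPM in the 32-week libraries, which is the same order of libraries as for Lyve1. The part of macrophages in the Lyve1 value was not tested. Flt4, the receptor for VEGF-C (chromosome 11, 49422765 to 49466241, plus strand), had 1.25 and 1.38 CPM in the 8-week and 1.73 and 1.69 CPM in the 32-week libraries (0.37, SE 0.39). Mmrn1, a platelet and lymphatic endothelial glycoprotein (chromosome 6, 60874970 to 60939372, plus strand), had 0.812 and 0.898 CPM in the 8-week and 0.277 and 1.11 CPM in the 32-week libraries (-0.27, SE 0.67), with 32-week replicate 3 low on 4 counts. Without that library the fold change of Mmrn1 was 0.38 on the log2 scale. Prox1, the master factor of lymphatic fate, had 0.148 and 0.138 CPM in the 8-week and 0.138 and 0.116 CPM in the 32-week libraries, all below the level of 3 counts. The order of the libraries thus differed among Lyve1, Flt4 and Mmrn1, each on low counts, and the 2 counts per library of Prox1 give no order.

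The 2 pericyte members had their highest levels in 1 library of each age. Rgs5, a G protein signalling regulator that marks pericytes (chromosome 1, 171585632 to 171625944, plus strand), had 6.42 and 10.01 CPM in the 8-week and 10.6 and 6.28 CPM in the 32-week libraries (log2 fold change 0.03, SE 0.34). Pdgfrb, the PDGF receptor that recruits pericytes, had 5.17 and 7.11 CPM in the 8-week and 7.53 and 3.49 CPM in the 32-week libraries (-0.17, SE 0.40). In both genes 8-week replicate 2 and 32-week replicate 3 were the 2 highest libraries. Of 13 tested genes on a further list of pericyte and vascular smooth muscle markers, 6 had the same 2 highest libraries (Cspg4, Kcnj8, Abcc9, Ndufa4l2, Vtn and Gja4), as did 20.05% of all genes tested. Kcnj8 and Abcc9, the 2 parts of a potassium channel of pericytes named after their values were seen, had 1.77, 4.21, 4.08 and 2.79 CPM and 2.44, 5.25, 4.70 and 2.97 CPM in replicates 1 to 4. The 3 most abundant genes of that list, the contractile Acta2, Tagln and Myh11, which myoepithelial cells also express, were instead each highest in 32-week replicate 4. Over the 13 genes, 9 had a log2 fold change above 0 (median 0.19). In 5 (Acta2, Myh11, Tagln, Myl9 and Ebf1) both 32-week libraries were above both 8-week libraries, against 14.4% of all genes tested. In 1 (Anpep) both were below, against 14.2%. Acta2 had 207.2 and 274.6 CPM in the 8-week and 287.6 and 291.2 CPM in the 32-week libraries (0.26, SE 0.24).

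The highest libraries of the endothelial members differed from gene to gene. Kdr, Plvap, Ptprb, Notch4 and Ramp2 were highest in 32-week replicate 3 and 8-week replicate 1 (17.9% of the 28 tested members, 14.8% of all genes tested). Plvap, the diaphragm protein of fenestrated capillaries, had 5.76 and 3.73 CPM in the 8-week and 7.81 and 4.77 CPM in the 32-week libraries. Esam, Emcn and Robo4 shared the 2 highest libraries of the pericyte genes, which with Rgs5 and Pdgfrb makes 17.9% of tested members, near the 20.05% of all genes tested. Esam, an adhesion molecule of tight junctions, had 3.32 and 8.01 CPM in the 8-week and 8.57 and 5.58 CPM in the 32-week libraries, and Emcn, a sialomucin of capillary and venous endothelium, had 4.94 and 8.63 CPM and then 9.19 and 6.40 CPM. Tek, Tie1, Vwf, Mmrn2 and Mmrn1 were highest in 32-week replicate 4 and 8-week replicate 2 (17.9% of tested members, 15.7% of all genes), and Cdh5 and Lyve1 in 32-week replicate 4 and 8-week replicate 1 (7.14% and 20.9%). Nothing particular to the vascular genes is read from these shares. Of the 28 tested members 14 had their highest library in 32-week replicate 3 and 13 their lowest in 8-week replicate 1. The same shares over all genes were not computed, so nothing particular to vascular genes is read from these counts either.

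**Figure D3:**
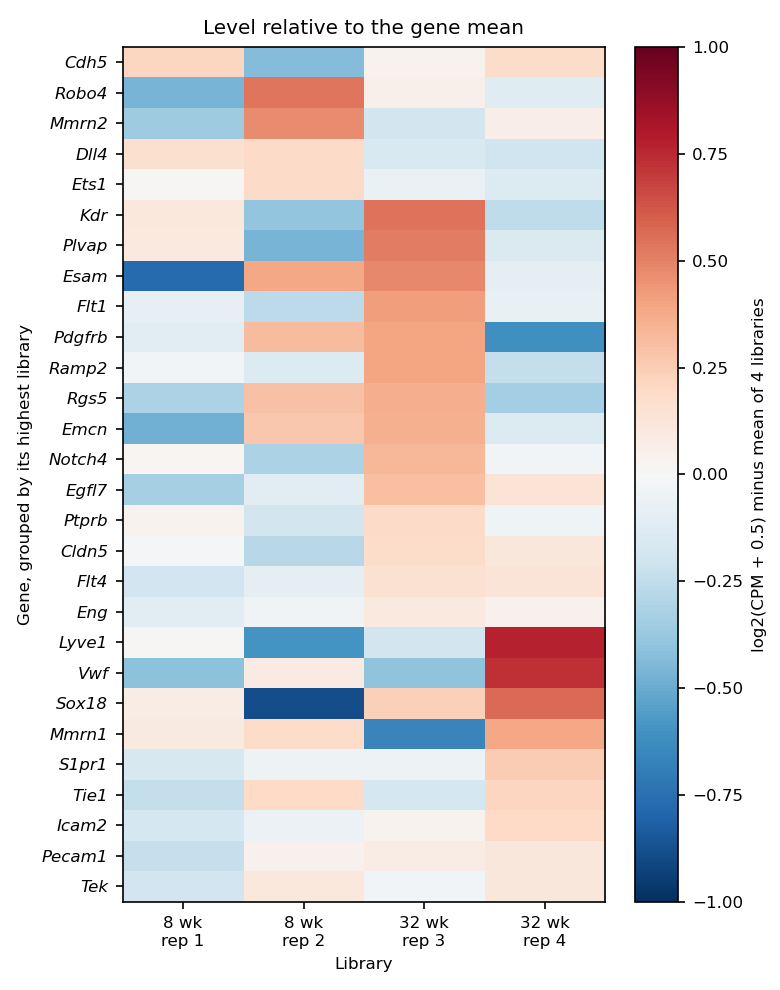
Colour shows log2(CPM + 0.5) minus the gene's mean over the 4 libraries for the 28 tested members, red above and blue below the mean, with genes grouped by their highest library. Of the 28 genes, 13 are lowest in 8-week replicate 1 and 9 in 8-week replicate 2, and the red cells of Rgs5, Pdgfrb, Esam and Emcn fall in 8-week replicate 2 and 32-week replicate 3.

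Relative to general endothelial transcripts of the same library, the members showed almost no lean by age. The reference was the mean log2(CPM + 0.5) of Pecam1, Cdh5, Esam, Icam2 and Tie1, which was 1.998 and 2.27 at 8 weeks and 2.33 and 2.36 at 32 weeks and was lowest in 8-week replicate 1. Relative to it the median difference of the other 27 members, 32 weeks minus 8 weeks, was -0.0028 on the log2 scale. Of the 27, 13 were above 0. The median over all genes tested was -0.21, which mirrors the higher reference at 32 weeks. The differences ran from -0.56 for Dll4 to 0.60 for Sox18. Egfl7 alone had both 32-week libraries above both 8-week libraries (1 of 27, background 1.8%), by 0.22. Tek, Ets1, Dll4 and Prox1 had both below (4 of 27, background 38.7%), by -0.12, -0.42, -0.56 and -0.25, and the value for Prox1 rests on 2 counts per library. No test was made of these differences, since the reference genes are themselves members. The reference was higher in both 32-week libraries than in both 8-week libraries. The contrast with all genes, background shares included, therefore restates that rise and is no separate result.

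**Figure D4:**
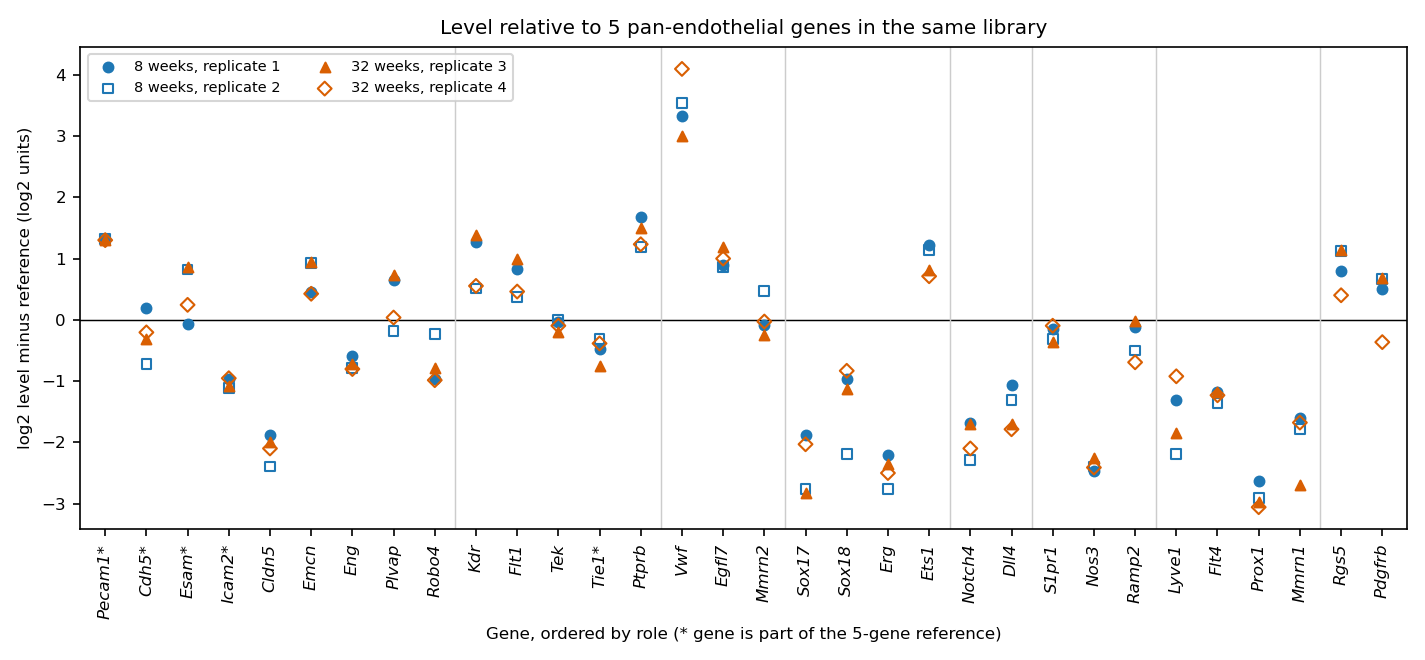
Log2 level of each of the 32 genes minus the mean of 5 pan-endothelial genes in the same library, by role, with blue for 8 weeks and orange for 32 weeks. Ets1 and Dll4 lie lower in both 32-week libraries, and most other genes show no order by age.

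A second list of 34 endothelial genes outside the members gave like numbers. Of its 28 tested genes 0 passed edgeR's test, 22 had a fold change above 0 (background 48.3%), and the median log2 fold change was 0.22. In 10 genes both 32-week libraries were above both 8-week libraries (background 14.4%), and in 0 both were below (background 14.2%). Its 3 most abundant genes were Lmo2, a haematopoietic and endothelial cofactor (52.5 and 39.01 CPM, then 71.3 and 46.7 CPM), Fabp4, a fatty acid carrier of capillaries and fat (35.9 and 20.9, then 29.7 and 30.8 CPM), and Ece1, the endothelin-converting enzyme (18.6 and 20.7, then 21.2 and 22.6 CPM). Only Ece1 of these 3 had no overlap between the ages. This list was written with an earlier endothelial result of these data known and is no independent support.

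Lists of ligands and pathway partners differed among themselves. Of 15 tested VEGF, angiopoietin and PDGF ligand genes 0 passed, 7 were above 0 and 8 below, with a median log2 fold change of -0.02. Vegfb, a VEGF family ligand of Flt1, had 22.7 and 11.3 CPM in the 8-week and 24.3 and 23.4 CPM in the 32-week libraries (0.50, SE 0.32). Vegfa, the main angiogenic ligand, had 19.3 and 10.98 CPM and then 14.9 and 9.48 CPM (-0.32, SE 0.33), and Cxcl12, a chemokine for vessels and leukocytes, had 21.8 and 16.2 CPM and then 19.8 and 17.2 CPM. All 3 were lower in 8-week replicate 2 than in 8-week replicate 1. Of 6 tested VEGF co-receptor and downstream genes 4 were above 0 (median 0.25, above the members' 0.22), with Nrp1, the neuropilin co-receptor, at 25.98 and 20.2 CPM and then 34.6 and 23.8 CPM, Plcg1, a phospholipase, at -0.19 (SE 0.36) and Plxnd1, a semaphorin receptor, at 0.59 (SE 0.30).

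Notch pathway genes outside the members had 5 above and 6 below 0 of 11 tested (median -0.12). Hes1, a Notch target, had 90.8 and 48.8 CPM and then 92.5 and 67.99 CPM, and Jag1, a Notch ligand, and Rbpj, the pathway's DNA-binding factor, had log2 fold changes of -0.15 (SE 0.33) and -0.12 (SE 0.20). BMP and TGF-beta genes of endothelium had 6 of 10 above 0 (median 0.14). Of these 10, 4 had both 32-week libraries above both 8-week libraries (background 14.4%) and 0 had both below (background 14.2%). The most abundant, the receptor Bmpr2 and the signal carriers Smad5 and Smad1, lay at -0.01, -0.01 and 0.08. Partners of nitric oxide, sphingosine-1-phosphate, adrenomedullin and endothelin signalling had 9 of 17 above 0 (median 0.04), with the chaperone Hsp90aa1 at 0.15, the caveolar Cavin1 at -0.19 and the lyase Sgpl1 at -0.06. None of the genes in these 3 lists passed.

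Markers of other cells varied between the libraries by more than the vascular genes did in several cases. Of 8 red blood cell genes, the 6 globin genes had 0 counts in every library, which allows at most 0.221 CPM. Alas2, the haem synthesis enzyme of red cells, had 44 to 79 counts. Its exons share 311 bases with those of Apex2 on the opposite strand, so the source of its counts is uncertain. Globin genes are near-identical copies, and how reads with several matching places were counted was not stated in the sources used here. Fibroblast genes summed to 373.8 and 316.7 CPM in the 8-week and 419.6 and 339.3 CPM in the 32-week libraries, and 6 of 8 were above 0 (median 0.22, led by Dcn, Col3a1 and Col1a2). Acinar genes were above 0 in 7 of 8 (median 0.33, led by Dcpp3, Smgc and Dcpp2). Duct genes were above 0 in 0 of 6 (median -0.14, led by Fxyd2, Krt7 and Kcnma1), and myoepithelial genes in 4 of 5 (median 0.15, led by Acta2, Krt14 and Cnn1). Macrophage genes were above 0 in 6 of 8 (median 0.21, led by C1qb, Csf1r and C1qa). B and plasma cell genes were above 0 in 4 of 4 (median 0.38, led by Jchain, Mzb1 and Cd79a), and summed to 940.2 and 77.3 CPM in the 8-week and 527.2 and 815.9 CPM in the 32-week libraries. Of the adipocyte genes, led by Car3, Cfd and Adipoq, 2 were tested and 0 were above 0 (median -2.13), and their sum was 36.01 and 5.59 CPM and then 0.277 and 8.72 CPM. Skeletal muscle genes, led by Acta1, Ckm and Myh2, stayed between 2.49 and 5.82 CPM in sum, and only Acta1 was tested (0.51, SE 0.52). Further lymphatic genes were above 0 in 4 of 5 (median 0.10, led by Maf, Stab1 and Pdpn). The fibroblast, acinar, macrophage and B and plasma cell lists thus had medians near or above the 0.22 of the vascular members. Nothing particular to vascular genes is read from the members' median. In that order, 0 of 8, 1 of 8, 1 of 8 and 0 of 4 genes had both 32-week libraries above both 8-week libraries. It was 0 of 6 for duct and 1 of 5 for myoepithelial genes. In the further pericyte and vascular smooth muscle list it was 5 of 13, and in the BMP and TGF-beta list 4 of 10. For the vascular members it was 9 of 28, against 14.4% of all genes tested, and the difference was not tested. Lists of 4 to 8 genes are too short to place a share below 14.4%. Nothing particular to vascular genes is read from the 9 of 28 either. The part of other cell types in the vascular values was not tested.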

How the data were processed

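The authors deposited whole-number read counts per gene symbol, 1 column per library, with no normalization. Reads were aligned with STAR to mm9, per the submitters' processing notes, and the version, counting tool, annotation, strand setting and handling of multiply mapping reads were not stated in the sources used here. Libraries were Illumina TruSeq RNA from Trizol-extracted RNA of flash-frozen glands, per the labels' protocols. In R 4.3.3, edgeR 4.0.16's quasi-likelihood test compared 32 with 8 weeks on the counts of all 4 libraries with TMM factors, the default filterByExpr filter (minimum count 10) and Benjamini-Hochberg adjustment over 12810 genes at 0.05. Standard errors and 95% intervals come from the same model. DESeq2 1.42.0 and limma-voom (limma 3.58.1) were alternatives, with other scalings and filters and each library left out in turn. The scripts were tested on simulated data. Members and lists were chosen with earlier results of these data known. Named genes are all members and up to 3 most abundant genes of each other list, plus Nkx2-3 and Madcam1; other names were chosen after their values were seen. All 32 members matched GENCODE vM1 on NCBIM37 (mm9), which gave positions, longest coding transcripts and exon overlaps. The result of 1 marker list is not reported here.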

Additional observations from a re-analysis of the deposited data

How the results depend on the processing

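With edgeR under total counts only, 10 genes of the whole table passed, with no low-count filter 7, and with DESeq2 3. With 1 library left out between 6 and 285 passed, the most without 8-week replicate 1. The count of members called was 0 under each of the 11 alternatives. The members' median log2 fold change was 0.12 with total counts only, where the median of all genes tested was -0.10 and 36.1% were above 0. With 1 library left out it lay between 0.17 and 0.30. Where 1 library is left out, the lone library of an age is assumed to vary like the others. Of 302 member values under alternatives, 21 changed sign and 0 passed the threshold, and 15 of 28 members kept their sign throughout. Sign changes with 1 library left out gave ranges of -0.11 to 0.63 for Cdh5, -0.18 to 1.09 for Esam, -0.15 to 0.66 for Emcn, -0.67 to 0.54 for Robo4, -0.13 to 0.70 for Kdr, -0.062 to 0.28 for Tek, -0.20 to 0.34 for Tie1, -0.26 to 0.89 for Vwf, -0.56 to 0.36 for Mmrn2, -0.17 to 0.55 for Ramp2, -1.59 to 0.38 for Mmrn1, -0.38 to 0.39 for Rgs5 and -0.81 to 0.30 for Pdgfrb. With total counts only Tie1 was at -0.020 and Rgs5 at -0.082, and with limma-voom Rgs5 was at -0.00026. The cause was not tested. No paired analysis was possible because the ages share no replicate number. Members with under 10 counts in most libraries (Sox17, Erg, Nos3 and Prox1) were left untested by the main filter, and their counts limit any statement on age.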
